A study of Mus musculus with 10 samples.

Results

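Microglia are the resident immune cells of the retina, and 9 genes used as their markers are described here in mouse neuroretina. The treatment was an injection of graphitic carbon nitride nanoparticles (CNP) into the vitreous body of the eye. The members are P2ry12, Tmem119, Cx3cr1, Csf1r, Aif1, Gpr34, Trem2, Tyrobp and Siglech, taken by name as published markers of these cells. All 9 were found among the 57186 Ensembl genes of the count table, and 7 passed the filter on low counts. The CNP group held 5 neuroretinas from female C57BL6/JRj mice given 1 µL of hg-C3N4 at 1 mg/mL in PBS, and the PBS group held 5 neuroretinas of the same strain and sex given PBS alone. All were taken 14 days after the injection, so both groups share the needle and the fluid. The labels state neither the age of the mice nor whether the libraries stand for separate animals. The p-values therefore weigh group differences against the spread between these libraries, which need not be the spread between animals. Libraries are named by group and by the number in their label.

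Microglia depend on signals through the receptor CSF1R, whose ligands are CSF1 and IL34. They sense injury through P2RY12, a receptor for ADP that guides their processes, and neurons restrain them through the chemokine CX3CL1 and its receptor CX3CR1. TREM2 and SIGLECH lack signalling tails of their own and act through the adaptor encoded by Tyrobp. P2ry12, Tmem119 and Cx3cr1 are known to decrease when microglia take on an injury-associated state, in which Apoe, Lpl and Gpnmb increase.

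The transcription factor PU.1, encoded by Spi1, is needed for the microglial lineage and binds a purine-rich core with GGAA. RefSeq promoter sequences on GRCm38.p6 were at hand for 5 members (P2ry12, Siglech, Cx3cr1, Aif1 and Trem2), each reaching from 250 bases before to 50 bases after the gene start. They are shown because this regulatory sequence was no part of the choice of members. Both strands were searched for GAGGAA and AGGAAGT, which share the letters AGGAA and can overlap, and capitals mark each match, so that TTCCTC is GAGGAA on the other strand. The windows with a match are these, each read 5′ to 3′ along the gene's own strand:
Aif1, chr17:35176003-35176302, minus strand: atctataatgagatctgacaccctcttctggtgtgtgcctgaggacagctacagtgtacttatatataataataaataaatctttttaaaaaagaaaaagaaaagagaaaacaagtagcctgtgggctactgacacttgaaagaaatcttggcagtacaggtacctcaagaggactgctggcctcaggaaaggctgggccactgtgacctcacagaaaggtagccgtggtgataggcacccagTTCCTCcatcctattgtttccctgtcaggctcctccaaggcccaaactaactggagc
Siglech, chr7:55767934-55768233, plus strand: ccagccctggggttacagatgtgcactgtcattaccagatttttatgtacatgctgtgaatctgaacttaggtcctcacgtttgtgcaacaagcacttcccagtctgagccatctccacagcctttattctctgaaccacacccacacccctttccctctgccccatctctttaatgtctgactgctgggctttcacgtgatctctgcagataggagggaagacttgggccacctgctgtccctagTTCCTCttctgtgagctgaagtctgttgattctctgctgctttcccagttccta
Trem2, chr17:48346151-48346450, plus strand: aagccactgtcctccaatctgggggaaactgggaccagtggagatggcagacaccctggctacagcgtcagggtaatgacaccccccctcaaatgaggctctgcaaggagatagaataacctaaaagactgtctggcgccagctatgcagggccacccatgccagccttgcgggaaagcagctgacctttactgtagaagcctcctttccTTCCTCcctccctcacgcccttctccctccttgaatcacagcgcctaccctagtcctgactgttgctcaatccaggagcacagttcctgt
P2ry12, chr3:59262936-59263235, minus strand: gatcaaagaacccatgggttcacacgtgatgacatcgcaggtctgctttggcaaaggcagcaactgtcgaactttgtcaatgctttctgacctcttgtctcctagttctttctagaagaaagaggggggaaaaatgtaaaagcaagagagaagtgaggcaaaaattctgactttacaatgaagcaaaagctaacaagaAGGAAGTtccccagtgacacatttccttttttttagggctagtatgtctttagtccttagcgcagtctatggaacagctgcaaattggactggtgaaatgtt
GAGGAA was found in 3 of the 5 windows, those of Aif1, Siglech and Trem2, and in 28.3% of all 32851 promoters of the same length. The match begins 7 bases before the start of Aif1, 4 bases before that of Siglech and 40 bases before that of Trem2. AGGAAGT was found in P2ry12 alone among the 5, beginning 52 bases before its start, and in 9.35% of all promoters. Neither was found in the window of Cx3cr1. Spi1 itself had 21 counts in CNP and 41 in PBS, too few to be tested.

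Library totals ran from 3493667 to 5354649 counts in CNP and from 3328518 to 5428697 in PBS. Genes of the rod photoreceptors were abundant: the 11 listed held 61898 to 78470 CPM (counts per 1000000 counts of the library) in CNP and 61559 to 87577 CPM in PBS. The 9 microglia markers together had 836 counts in CNP and 799 in PBS. Their sum was 40.3 CPM in CNP 4, 38.4 in CNP 8, 35.5 in CNP 12, 46.8 in CNP 16 and 27.8 in CNP 20. In the PBS libraries it was 38.5 CPM in PBS 2, 40.3 in PBS 6, 40.9 in PBS 10, 30.1 in PBS 14 and 24.03 in PBS 18. The groups overlapped from 27.8 to 40.9 CPM, with the highest sum in CNP 16 and the lowest in PBS 18, and averaged 37.8 ± 6.95 CPM in CNP and 34.8 ± 7.40 CPM in PBS (SD, n = 5 each). The rod sum stood higher in every library numbered above 10 (72761 to 78470 CPM in CNP, 87229 and 87577 CPM in PBS) than in those up to 10 (61898 and 67688 CPM in CNP, 61559 to 63810 CPM in PBS), and PBS 14 and PBS 18, with the highest rod sums, had the lowest marker sums of their group. These marker sums used library totals. On totals scaled by TMM, as used for single genes, the marker sum was 35.6 CPM in PBS 14, above 35.2 CPM in PBS 2. PBS 18 was still the lowest of its group, at 26.03 CPM, so the low place of PBS 14 depended on the scaling. CNP 16, also above 10, had the highest marker sum of all libraries on either scale, with a rod sum of 72761 CPM. Whether the numbers mark a batch is not stated, and the part of the rod share in the marker values was not tested. In such tissue-wide libraries fewer microglia and less RNA per microglial cell cannot be told apart.

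Genes of the neighbouring eye tissues varied between the same libraries. Of the lens genes, all 13 tested of the 15 listed had a negative log2 fold change (CNP over PBS) with a median of -1.44, and their sum ran from 386 to 5461 CPM in CNP and from 336 to 13892.5 CPM in PBS. Pigment epithelium genes were positive for 7 of 8 tested, with a median of 0.34 and a sum of 1565 to 2917 CPM in CNP and 1130 to 2471 CPM in PBS. No gene of either list passed the test, and their part in the microglial values was not tested.

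The comparison of CNP with PBS asks whether the nanoparticles changed these markers. With edgeR's quasi-likelihood test, 0 of the 7 tested markers passed an adjusted p of 0.05, as did 0 of all 11499 tested genes (0%). DESeq2 and limma-voom also called 0 of the markers. At an unadjusted p under 0.05 there was 1 marker, Gpr34, higher in CNP. Of all tested genes 1.19% were under it, where 0.583% of all tested genes were higher and 0.609% lower. Of the 7, 5 had a positive log2 fold change and 2 a negative one, with a median of 0.16; over all tested genes 48.8% were positive and the median was -0.0036. For 6 of the 7, all but Gpr34, a change of 2-fold or more, up or down, was outside the 95% interval, as for 94.2% of all tested genes. No marker had groups of CPM values that did not overlap, which 0.287% of all tested genes had.

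**Figure D1:**
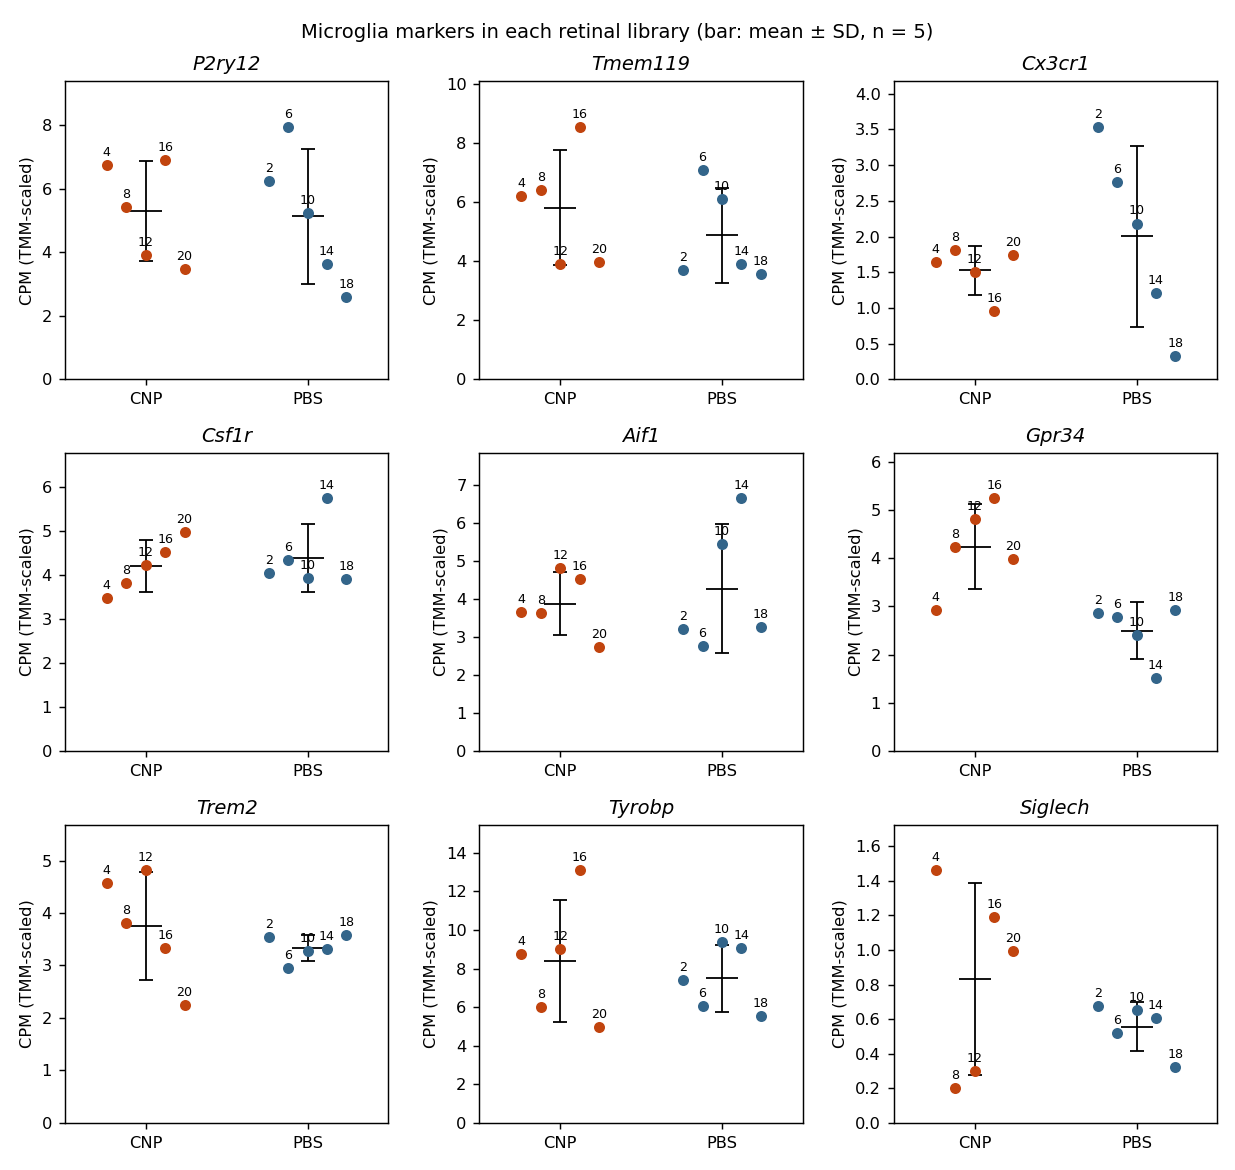
CPM scaled by TMM of each of the 9 microglia markers in the 5 CNP and 5 PBS libraries, with the library number beside each point; bars give mean ± SD. Gpr34 is the marker with the least overlap: 4 CNP libraries lie above every PBS library, and CNP 4 at 2.92 CPM lies just under PBS 18 at 2.93 CPM.

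Among the receptors that sense nucleotides and lipids, Gpr34 (ENSMUSG00000040229), a receptor for lysophosphatidylserine, had 16 counts in CNP 4, 21 in CNP 8, 16 in CNP 12, 22 in CNP 16 and 16 in CNP 20, against 17 in PBS 2, 16 in PBS 6, 11 in PBS 10, 5 in PBS 14 and 9 in PBS 18. Scaled to library size these gave 2.92, 4.22, 4.82, 5.24 and 3.98 CPM in the same CNP libraries and 2.87, 2.77, 2.40, 1.51 and 2.93 CPM in the same PBS libraries. All 5 CNP libraries lay above the PBS mean, and 4 of the 5 lay above every PBS library. The mean was 4.24 ± 0.885 CPM in CNP and 2.49 ± 0.587 CPM in PBS (SD, n = 5 each), a 1.64-fold difference with a 95% interval of 1.16 to 2.32 (log2 fold change 0.72, SE 0.23). The edgeR p was 0.0087 unadjusted and 0.9997 adjusted over all tested genes, so the difference did not pass. An exact permutation test of the mean log2 CPM gave p = 0.0159, two-sided and unadjusted, where 0.00794 is the smallest possible with 5 against 5; the other 8 markers had p of 0.405 to 0.802 by the same test. Among the 5 libraries numbered up to 10 the mean was 3.57 CPM in CNP and 2.68 CPM in PBS, and among those above 10 it was 4.68 CPM in CNP and 2.22 CPM in PBS.

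Gpr34 lies on the opposite strand inside the gene body of Cask, a neuronal scaffold gene on chromosome X, in GENCODE M21, and no exons of these genes overlap. The sources used here do not say whether counting used the strand, so reads from a Cask intron could be counted as Gpr34. Cask averaged 62.0 ± 16.6 CPM in CNP and 69.8 ± 24.5 CPM in PBS (SD, n = 5 each), with a log2 fold change of -0.18, opposite in sign to Gpr34. Exons of P2ry12 overlap those of Med12l on the other strand, which had 20 counts in CNP and 23 in PBS. Exons of Csf1r overlap those of Hmgxb3, at 8.39 ± 1.48 CPM in CNP and 8.93 ± 1.48 CPM in PBS (SD, n = 5 each). The gene body of Cx3cr1 overlaps, with no shared exon, those of Wdr48 on the other strand (46.1 ± 3.60 CPM in CNP and 47.6 ± 2.08 CPM in PBS) and Gorasp1 on the same strand (23.998 ± 2.15 CPM in CNP and 21.5 ± 3.90 CPM in PBS; SD, n = 5 each). If counting did not use the strand, reads from both strands could not be told apart where exons of P2ry12 or Csf1r overlap. The part of all these neighbours in the values was not tested.

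P2ry12 (ENSMUSG00000036353), the ADP receptor used as the leading marker of resting microglia, had 37, 27, 13, 29 and 14 counts in CNP 4, 8, 12, 16 and 20, and 37, 46, 24, 12 and 8 counts in PBS 2, 6, 10, 14 and 18. The scaled values were 6.76, 5.43, 3.91, 6.91 and 3.48 CPM in CNP and 6.24, 7.96, 5.24, 3.62 and 2.60 CPM in PBS in the same order. Both groups held high and low libraries, and the values of CNP lay inside the range of PBS. The mean was 5.30 ± 1.58 CPM in CNP and 5.13 ± 2.12 CPM in PBS (SD, n = 5 each), with a log2 fold change of 0.0014 (edgeR unadjusted p = 0.996) and a 95% interval of 0.627 to 1.60 on the fold scale. Over both groups P2ry12 averaged 6.33 CPM in the 5 libraries numbered up to 10 and 4.11 CPM in the 5 above 10; these sets are not balanced, holding 2 and 3 CNP libraries. Within them the mean was 6.09 CPM in CNP and 6.48 CPM in PBS up to 10, and 4.77 CPM in CNP and 3.11 CPM in PBS above 10, so the sign differed between the sets.

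Cx3cr1 (ENSMUSG00000052336), the fractalkine receptor, was too scarce for the filter, with 34 counts in CNP and 52 in PBS over all libraries. It had 9, 9, 5, 4 and 7 counts in CNP 4, 8, 12, 16 and 20 and 21, 16, 10, 4 and 1 counts in PBS 2, 6, 10, 14 and 18. The CNP libraries were close together, at 0.953 to 1.81 CPM, and the PBS libraries ran from 0.325 CPM in PBS 18 to 3.54 CPM in PBS 2. The mean was 1.53 ± 0.342 CPM in CNP and 2.01 ± 1.27 CPM in PBS (SD, n = 5 each). Without the filter, edgeR gave a log2 fold change of -0.50 (unadjusted p = 0.236, adjusted p = 0.928), and DESeq2 gave -0.47. Among libraries numbered up to 10 the mean was 1.73 CPM in CNP and 2.83 CPM in PBS, and above 10 it was 1.40 CPM in CNP and 0.767 CPM in PBS. The direction therefore differed between the sets.

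Csf1r (ENSMUSG00000024621), the receptor that keeps microglia alive, was among the steadiest of the markers. It had 19, 19, 14, 19 and 20 counts in CNP 4, 8, 12, 16 and 20, and 24, 25, 18, 19 and 12 counts in PBS 2, 6, 10, 14 and 18. On the CPM scale the CNP libraries ran from 3.47 to 4.97 and the PBS libraries from 3.90 to 5.74, the highest being PBS 14 with the other 4 at 4.33 or less. The mean was 4.20 ± 0.587 CPM in CNP and 4.39 ± 0.773 CPM in PBS (SD, n = 5 each), a log2 fold change of -0.062 (edgeR unadjusted p = 0.765) with a 95% interval of 0.725 to 1.27 on the fold scale. This was the narrowest interval among the 7 tested markers.

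Tyrobp (ENSMUSG00000030579) encodes the adaptor DAP12, which carries the signal of TREM2 and SIGLECH. It had 48, 30, 30, 55 and 20 counts in CNP 4, 8, 12, 16 and 20 and 44, 35, 43, 30 and 17 counts in PBS 2, 6, 10, 14 and 18. CNP 16 was the highest of all libraries at 13.1 CPM and CNP 20 the lowest at 4.97 CPM, and the PBS libraries lay between them, from 5.53 to 9.38 CPM. The mean was 8.38 ± 3.16 CPM in CNP and 7.49 ± 1.73 CPM in PBS (SD, n = 5 each), with a log2 fold change of 0.16 (SE 0.26, edgeR unadjusted p = 0.548). Without CNP 16 it was -0.058.

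Trem2 (ENSMUSG00000023992), a receptor for lipids and apolipoproteins, had 25, 19, 16, 14 and 9 counts in CNP 4, 8, 12, 16 and 20 and 21, 17, 15, 11 and 11 counts in PBS 2, 6, 10, 14 and 18. The PBS libraries were nearly equal, at 2.94 to 3.58 CPM, and the CNP libraries spread from 2.24 to 4.82 CPM on both sides of them. The mean was 3.76 ± 1.03 CPM in CNP and 3.33 ± 0.255 CPM in PBS (SD, n = 5 each), with a log2 fold change of 0.18 (SE 0.22, edgeR unadjusted p = 0.426). Siglech (ENSMUSG00000051504), a lectin receptor found on microglia and plasmacytoid dendritic cells, had 8, 1, 1, 5 and 4 counts in CNP 4, 8, 12, 16 and 20 and 4, 3, 3, 2 and 1 counts in PBS 2, 6, 10, 14 and 18. With 19 counts in CNP and 13 in PBS in all, it was not tested, and edgeR without the filter gave a log2 fold change of 0.56 (unadjusted p = 0.316). Its CNP values of 0.201 to 1.46 CPM enclosed the PBS values of 0.325 to 0.674 CPM.

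Tmem119 (ENSMUSG00000054675), a membrane protein that separates resident microglia from infiltrating macrophages, had 34, 32, 13, 36 and 16 counts in CNP 4, 8, 12, 16 and 20 and 22, 41, 28, 13 and 11 counts in PBS 2, 6, 10, 14 and 18. The scaled values were 6.21, 6.43, 3.91, 8.57 and 3.98 CPM in CNP and 3.71, 7.10, 6.11, 3.93 and 3.58 CPM in PBS. Each group fell into high and low libraries, and only CNP 16 lay above every PBS library. The mean was 5.82 ± 1.95 CPM in CNP and 4.88 ± 1.61 CPM in PBS (SD, n = 5 each), with a log2 fold change of 0.24 (SE 0.27, edgeR unadjusted p = 0.396). Aif1 (ENSMUSG00000024397), which encodes the actin-binding protein IBA1 used to stain microglia, had 20, 18, 16, 19 and 11 counts in CNP 4, 8, 12, 16 and 20 and 19, 16, 25, 22 and 10 counts in PBS 2, 6, 10, 14 and 18. The CNP libraries held 2.73 to 4.82 CPM, all below PBS 14 at 6.64 CPM and PBS 10 at 5.46 CPM, and the other PBS libraries had 2.77 to 3.25 CPM. The mean was 3.87 ± 0.825 CPM in CNP and 4.27 ± 1.69 CPM in PBS (SD, n = 5 each), and the log2 fold change was -0.11 (SE 0.27, edgeR unadjusted p = 0.685).

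**Figure D2:**
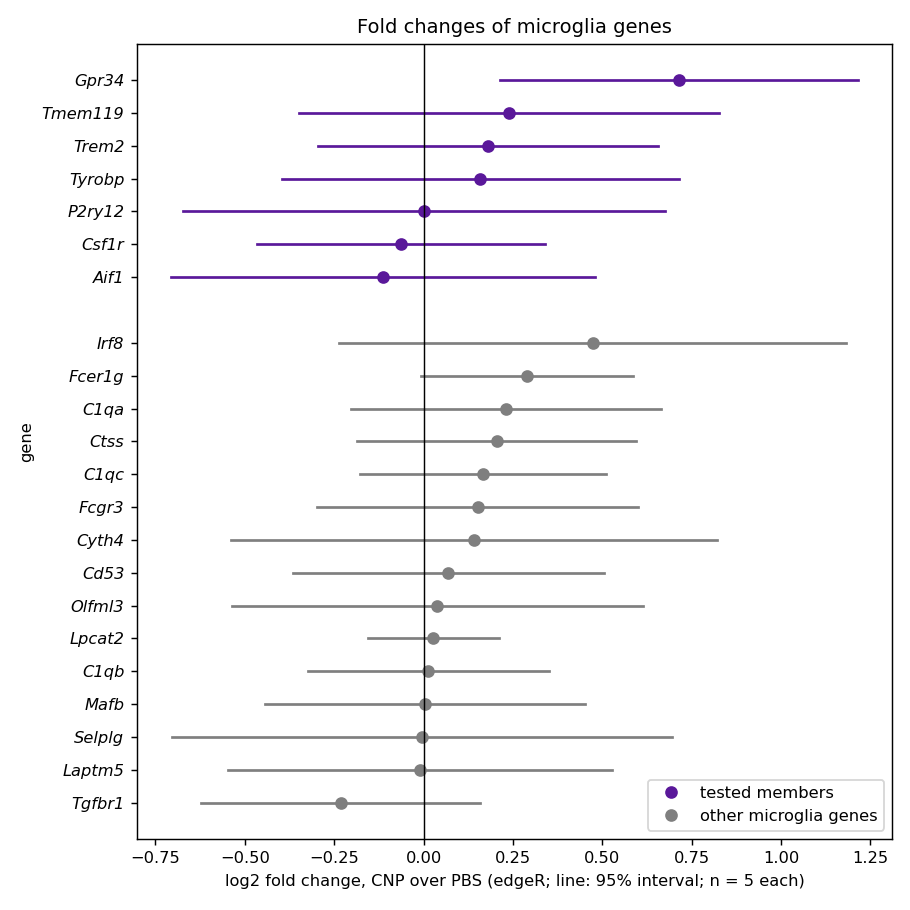
Log2 fold change of CNP over PBS with its 95% interval for the 7 tested markers and for tested genes of the list of other microglia genes, 1 of them not drawn. The interval of Gpr34 is the only one drawn that leaves out 0, and that gene did not pass after adjustment; the values of the other genes lie between -0.23 (Tgfbr1) and 0.47 (Irf8).

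The spread between libraries was set beside the spread that counting alone gives at these depths. For P2ry12 the coefficient of variation of CPM was 29.8% in CNP and 41.2% in PBS, where counting alone gives 21.0% and 21.5%. Tyrobp varied by 37.7% in CNP and 23.1% in PBS, against 16.7% and 17.8% from counting, and Tmem119 by 33.4% and 33.0%, against 20.1% and 22.0%. These were the members with more spread than counting error in both groups. Csf1r varied by 14.0% in CNP and 17.6% in PBS and Gpr34 by 20.9% and 23.5%, less than counting alone gives in either group (23.6% and 23.3% for Csf1r, 23.5% and 30.9% for Gpr34). For the scarce Cx3cr1 the spread was 22.4% in CNP and 63.2% in PBS, with 39.1% and 34.4% from counting. How many of the counts are copies of the same molecule is not known, so the counting error is a lower estimate.

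**Figure D3:**
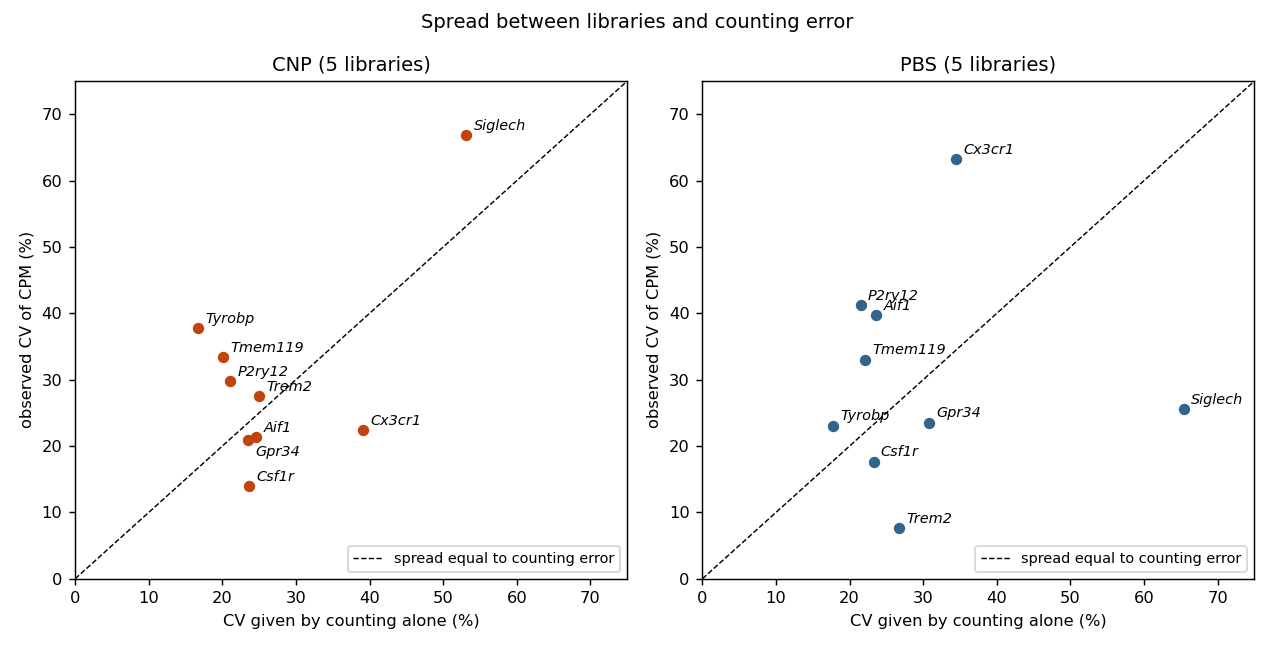
Observed coefficient of variation of CPM over 5 libraries against the coefficient that Poisson counting gives, in CNP and PBS; the dashed line marks equality. P2ry12, Tmem119 and Tyrobp lie above the line in both groups, Csf1r and Gpr34 below it in both, and Trem2 in PBS lies lowest, at 7.64% observed against 26.7% from counting.

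Co-variation of the members was measured as the correlation of log2 CPM over the 10 libraries for each of the 36 pairs. The median Pearson r was 0.063, with 22 pairs positive and a range of -0.55 to 0.77. Among the 7 tested members the median of 21 pairs was 0.10. Over all pairs of tested genes the median was 0.0003, and over pairs of the 2297 tested genes with a mean of 3.37 to 7.94 CPM, the range of the tested members, it was 0.0255. After Benjamini-Hochberg adjustment over the 36 pairs, 0 passed by Pearson or by Spearman correlation, and 3 pairs by Pearson and 2 by Spearman had an unadjusted permutation p under 0.05. The most alike pair was P2ry12 and Tmem119, with r = 0.77 (permutation p = 0.0138, adjusted p = 0.352) and Spearman coefficient 0.73 (permutation p = 0.0196, adjusted p = 0.354). Without CNP 20 and PBS 18, the libraries farthest from the median of P2ry12, r was 0.69, and with group means taken out it was 0.78. In both genes CNP 4, CNP 16 and PBS 6 stood high and CNP 12, CNP 20, PBS 14 and PBS 18 low, while PBS 2 was high in P2ry12 and low in Tmem119.

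Aif1 and Tyrobp formed the next pair, with r = 0.72 (permutation p = 0.0196, adjusted p = 0.352) and a Spearman coefficient of 0.82 (permutation p = 0.00583, adjusted p = 0.210). Without PBS 10 and PBS 14, r was 0.81, and with group means taken out it was 0.75. Aif1 had an r of 0.012 with Tmem119 and of -0.16 with P2ry12. For P2ry12 and Cx3cr1 r was 0.63 (permutation p = 0.0466, adjusted p = 0.560) and the Spearman coefficient 0.43 (permutation p = 0.223, adjusted p = 1). It was 0.37 without CNP 20 and PBS 18 and 0.34 without PBS 18 alone, so that this relation rests on PBS 18. The lowest r was that of Csf1r with Trem2, at -0.55 (permutation p = 0.102, adjusted p = 0.919), with a Spearman coefficient of -0.62 (permutation p = 0.0614, adjusted p = 0.737) and r = -0.47 without CNP 20 and PBS 14. P2ry12, Tmem119 and Cx3cr1 all averaged higher in libraries numbered up to 10 (6.33, 5.91 and 2.39 CPM) than in those above 10 (4.11, 4.79 and 1.15 CPM), over both groups. With the means of these sets taken out, an alternative chosen after seeing the data, r was 0.74 for P2ry12 with Tmem119, 0.72 for Aif1 with Tyrobp, 0.29 for P2ry12 with Cx3cr1 and -0.58 for Csf1r with Trem2. No r was computed within a set, since each holds only 5 libraries.

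**Figure D4:**
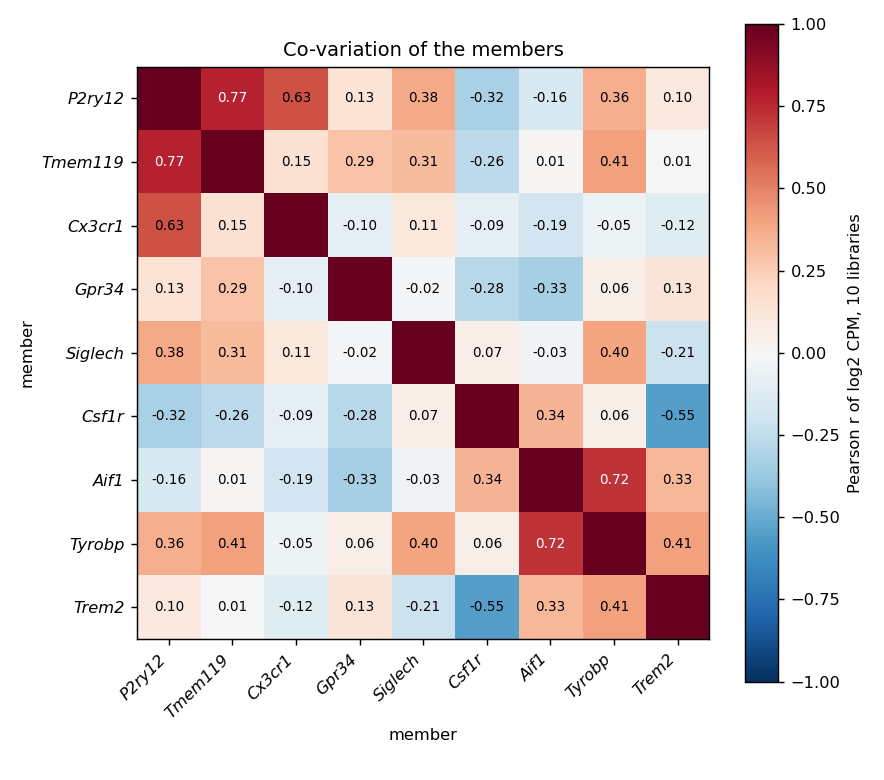
Pearson r of log2 CPM over 10 libraries for every pair of the 9 markers. Red cells are positive and blue cells negative; P2ry12 with Tmem119 (0.77), Aif1 with Tyrobp (0.72) and P2ry12 with Cx3cr1 (0.63) are the darkest red off the diagonal, and 22 of 36 pairs are positive.

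**Figure D5:**
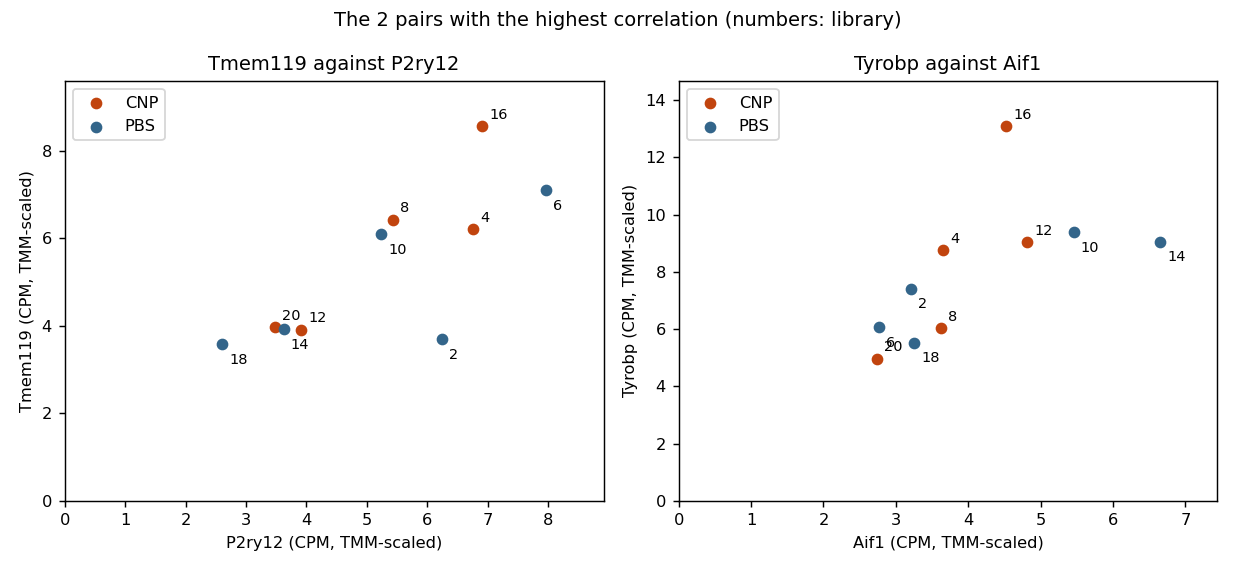
Tmem119 against P2ry12 and Tyrobp against Aif1, in CPM scaled by TMM, with each library's number. CNP and PBS libraries are mixed along both clouds, and PBS 2 lies off the first, with 6.24 CPM of P2ry12 and 3.71 CPM of Tmem119.

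To find the genes that follow the markers as a whole, the log2 CPM of the 7 tested markers was standardised and averaged per library. This mean was highest in CNP 16 (0.976) and lowest in CNP 20 (-0.701) and PBS 18 (-0.786), and between -0.254 and 0.363 in the other libraries. The genes outside the markers with the highest r to it over the 10 libraries, out of 11492, were Nt5c3b (0.96), Plekhm2 (0.94), Efemp2 (0.93), Chil1 (0.92) and Ap1s1 (0.91), followed by Iscu, Ppp1r1a, Dtnbp1, Tsc22d4 and Itm2a at 0.89 to 0.91. None of these 10 is on a list of microglia genes. Among the 16 tested other microglia genes the median r was 0.45 with 12 positive, where all tested genes had a median of 0.029, a 90th percentile of 0.49 and 53.1% positive. The complement genes C1qa (0.82), C1qb (0.75) and C1qc (0.60), whose products tag synapses, and the Fc receptor genes Fcer1g (0.72) and Fcgr3 (0.69) were high, and Tgfbr1 was at -0.57. Of these, C1qb, C1qc, Fcgr3 and Tgfbr1 were picked after their values were seen. The 11 rod genes had a median r of -0.18, the 8 Müller glia genes 0.52, the 8 pigment epithelium genes 0.11 and the 13 lens genes -0.11.

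Other microglia genes gave small fold changes. Of 30 listed, 16 were tested and 0 passed; 13 had a positive log2 fold change and 3 a negative one, with a median of 0.055. Fcer1g, the Fc receptor chain that signals like DAP12, averaged 11.5 ± 1.15 CPM in CNP and 9.42 ± 1.03 CPM in PBS (SD, n = 5 each), a log2 fold change of 0.29 (edgeR unadjusted p = 0.0541). Irf8, a transcription factor of the myeloid lineage, had 0.47 (SE 0.33), and Lpcat2, a lipid acyltransferase gene, 0.028. C1qa had 0.23 and the cathepsin gene Ctss 0.20.

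Ligands, partners and other genes listed around the markers were measured in the same libraries. In the CSF1R group 4 of 9 genes were tested, all 4 negative with a median of -0.15 and none past the threshold. Of the 4, only Il34 and Csf1 encode ligands of CSF1R. The ligand Il34 averaged 5.57 ± 1.31 CPM in CNP and 6.79 ± 2.76 CPM in PBS (log2 fold change -0.32), and the other ligand, Csf1, 4.93 ± 0.743 CPM in CNP and 5.42 ± 2.41 CPM in PBS (-0.20; SD, n = 5 each). The cytokine receptor gene Csf2ra had -0.073 and the adaptor gene Grb2 -0.087. Cx3cl1, the neuronal ligand of CX3CR1, averaged 46.3 ± 19.2 CPM in CNP and 47.8 ± 26.2 CPM in PBS, a log2 fold change of -0.059 with SE 0.36. Of the 5 genes tested in that group 3 were positive and 2 negative with a median of 0.010; the sheddase gene Adam10 had -0.076 and the G protein subunit gene Gnai2 0.14.

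Of 12 genes around TREM2 and DAP12, 2 were tested and neither passed: the apolipoprotein gene Apoe had a log2 fold change of 0.066 and Clu, another apolipoprotein gene, -0.022. The kinase gene Syk, which acts behind DAP12, had 9 counts in CNP and 17 in PBS, and Hcst, the gene of the related adaptor DAP10, had 5 in CNP and 3 in PBS. In the P2RY12 group 3 of 8 genes were tested and none passed, with a median of -0.018: Nt5e, which makes adenosine, had -0.018, the ATP receptor gene P2rx4 -0.10 and the integrin gene Itgb1 0.060. The related receptor P2ry13 had 19 counts in CNP and 12 in PBS.

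Of 24 genes of the injury-associated microglial state, 18 were tested, with 14 positive, 4 negative, a median of 0.065 and none past the threshold. The list summed to 4085 to 4835 CPM in CNP and 3775 to 4668 CPM in PBS. These are values of the whole tissue, and Apoe is also on the list of Müller glia genes. The part of cells other than microglia in them was not tested. At an unadjusted p under 0.05 there were 3 of the 18, all higher in CNP, where 0.583% of all tested genes were higher: Lyz2, the macrophage lysozyme gene (log2 fold change 1.34), the chemokine gene Ccl6 (0.83) and Gpnmb (0.64), the last named after its value was seen. The cathepsin gene Ctsb had 0.067. Lpl, a lipoprotein lipase gene also named after its value was seen, had the lowest value of the list, at 6.15 ± 1.74 CPM in CNP and 8.57 ± 3.52 CPM in PBS (SD, n = 5 each), a log2 fold change of -0.49 (edgeR unadjusted p = 0.098). The r of Lyz2 to the mean of the markers was 0.36.

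Marker lists of border macrophages and of blood-borne cells had few tested genes. Of 11 genes of border macrophages 1 was tested, Lyve1, at 0.0032. The sum of the list was 8.55 to 15.9 CPM in CNP and 6.12 to 16.8 CPM in PBS. It rests mostly on Lyve1, with 196 of the 271 counts in CNP and 209 of the 267 in PBS. Mrc1 had 4 counts in CNP and 3 in PBS, and Cd163 and Cd209f had 0 in all libraries. The 13 monocyte and neutrophil genes summed to 2.61 to 5.46 CPM in CNP and 1.79 to 5.16 CPM in PBS. Fn1, the tested member, had 0.24 and held 70 of the 102 counts of the list in CNP and 62 of the 83 in PBS. Ccr2 had 2 counts in CNP and 1 in PBS, and Chil3, Camp and Ngp had 0. The 20 lymphoid and dendritic genes summed to 20.4 to 36.6 CPM in CNP and 19.1 to 34.7 CPM in PBS, with 6 at 0 (Cd3e, Cd3d, Cd2, Klrb1c, Ms4a1 and Xcr1). Of their 4 tested genes H2-Aa had a log2 fold change of 0.92 (edgeR unadjusted p = 0.00922), Cd74 0.81, H2-Ab1 0.19 (edgeR unadjusted p = 0.347) and Bst2 -0.15, and none passed. H2-Eb1 was not tested, with 36 counts in CNP and 34 in PBS. H2-Ab1 and H2-Eb1 were named after their values were seen. Of 7 platelet genes, listed because platelets also carry P2RY12, 1 was tested, Itga2b. It had 0.69 (edgeR unadjusted p = 0.0145, adjusted p = 0.9997) and did not pass. At an unadjusted p under 0.05, 0.583% of all tested genes were higher in CNP. The list summed to 3.71 to 5.76 CPM in CNP and 2.04 to 3.68 CPM in PBS. These sums did not overlap between the groups, though CNP 8 at 3.71 CPM and PBS 2 at 3.68 CPM nearly met. For single tested genes, on CPM scaled by TMM, 0.287% did not overlap. That share is not on the same measure as a list sum over library totals. The sum rests mostly on Itga2b, with 70 of the 101 counts in CNP and 45 of the 67 in PBS. Gp1ba and Treml1 had 0. Of 7 cell cycle genes Pcna was tested, with 0.035, and Mki67, the usual marker of dividing cells, had 0 counts in all 10 libraries. The 11 rod genes had a median of -0.035 with 3 positive and the 8 Müller glia genes 0.035 with 5 positive, none of them past the threshold.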

How the data were processed

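Polyadenylated RNA from 10 neuroretina samples was copied into cDNA using primers with barcodes and molecular identifiers, then amplified for sequencing, per the labels' protocols. STAR and STARsolo with build GRCm39 are named, per the submitters' processing notes; the sources used here give no version, annotation, strand use or collapsing of identifiers. The authors deposited raw counts for 57186 Ensembl genes, of which 22756 had a count. Symbols came from a table that matched 51880 IDs, all 9 members included. Coordinates of the promoters are on GRCm38.p6, which is not the build of the counts.

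Counts were filtered with filterByExpr (minimum count 10, minimum total 15), scaled by TMM and compared with edgeR 4.0.16 (R 4.3.3; two-sided quasi-likelihood test). P-values had a Benjamini-Hochberg adjustment over the 11499 genes left. Cx3cr1 and Siglech did not pass the filter. Log2 CPM used a prior count of 2, and a sum over a list used library totals. Correlations used 100000 permutations, and single values an exact permutation test over 252 assignments (scipy 1.17.1). Within groups, 20 pairs of libraries differed by a chi-square of 3.99 to 32.6 per degree of freedom, so none was a duplicate. Alternatives were DESeq2 1.42.0, limma-voom (limma 3.58.1), other scalings, no filter, a covariate for library number above 10, and leaving out each library. The scripts were tested on simulated counts.

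The members and lists were chosen with earlier results of these data known. The rule for named genes took all members, from each list the 2 tested genes with the highest mean CPM and the 2 with the smallest p where none passed, a few fixed genes, and the 10 genes most alike. The rod, Müller glia, pigment epithelium and lens genes it takes are given as lists only, and some single genes it takes are not reported here. Genes whose bodies overlap a member were added after the values were seen. Levels were not compared between genes.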

Additional observations from a re-analysis of the deposited data

Results flagged for a closer look

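In 20 groups of 5 libraries (each of the 9 markers and their sum, in CNP and in PBS), 1 library stood apart from its group by Dixon's criterion, which chance meets in about 1 group of 20. It was PBS 14 for Csf1r, at 5.74 CPM, with the other PBS libraries at 3.90 to 4.33 CPM. Without PBS 14 the log2 fold change of Csf1r was 0.034, against -0.062 with all libraries.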

How the results depend on the processing

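The counts of called genes, called markers and called genes of the linked lists were 0 with all libraries and 0 under each alternative fit. With library number above 10 as a covariate 272 genes had an unadjusted p under 0.05, and without the low-count filter 422, against 137. Gpr34, Tmem119 and Trem2 kept their direction in all alternatives; leaving out 1 library gave Gpr34 a log2 fold change of 0.61 to 0.84 and an unadjusted p of 0.003 to 0.0264, with a smallest adjusted p of 0.941. Tmem119, at 0.24, ran from 0.070 without CNP 16 to 0.43 without PBS 6, and Trem2, at 0.18, from 0.092 without CNP 4 to 0.31 without CNP 20. The sign of P2ry12, near 0, turned with library totals only (-0.023) and without CNP 4 (-0.10), PBS 14 (-0.094), CNP 16 (-0.10) or PBS 18 (-0.14), in a range of -0.14 to 0.22 over libraries left out. Csf1r turned without CNP 4 (0.013) or PBS 14 (0.034; range -0.13 to 0.034), Aif1 without PBS 10 (0.010) or PBS 14 (0.075; range -0.25 to 0.075), and Tyrobp without CNP 16 (-0.058; range -0.058 to 0.29). The median r of the pairs was 0.18 with library totals only, 0.11 with library-number set means removed (chosen after seeing the data), -0.012 without PBS 18, and up to 0.11 without another library, against 0.063. The summed CPM of the markers was higher in CNP by 2.99, by 2.16 without Tyrobp, by 3.37 on TMM-scaled totals and by 0.311 to 5.49 without 1 library. The cause of these shifts was not tested. Cx3cr1 and Siglech had values without the filter and with DESeq2 only. No paired analysis was made, because each library has its own number and the labels do not state whether any libraries share an animal. At 5 to 55 counts a library for the tested markers, counting error alone limits what could be detected.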
